A study of Mus musculus with 39 samples.

Results

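The contractile and perivascular genes of the vessel wall were followed through 39 RNA sequencing libraries, namely Acta2, Tagln, Myh11, Tpm2, Cnn1, Myl9, Mylk, Des, Rgs5 and Pdgfrb. They were taken from the gene tables by symbol, through the Ensembl identifiers of the GENCODE M21 annotation, and all 10 were found among 55401 genes. The set was chosen by measured expression values, with Acta2 leading in 1 group, the PFC libraries of susceptible mice. Every contrast that holds that group is therefore a description here, with no test for these genes. All 10 passed the filter on low counts in each fit.

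The mice were males, either controls or animals put through chronic social defeat stress, in which repeated encounters with an aggressor leave some of them avoiding other mice (susceptible) and others not (resilient). ACSA-2 beads, which bind the surface of astrocytes, were used to pull those cells from the tissue, so the libraries were not aimed at vessel wall cells, and their RNA input was in the picogram range. The nucleus accumbens (NAc) gave 7 control, 8 susceptible and 7 resilient libraries. Tissue labelled PFC, read here as prefrontal cortex, gave 6 control, 6 susceptible and 5 resilient libraries. The protocol names NAc tissue for all libraries, the tissue label of 17 reads PFC, and the labels name neither a strain nor an age. Each library carries its own mouse number, but whether NAc and PFC libraries of consecutive numbers came from the same animal cannot be told from the labels. They were treated as separate animals, so p-values measure the spread between libraries, and the SEs of the region comparisons assume no shared mice.

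Vascular smooth muscle cells wrap arteries and arterioles and set their width by contracting. Calcium entering the cell activates the kinase encoded by Mylk, which phosphorylates the myosin light chain of Myl9, and the Myh11 motor then pulls on filaments of the actin encoded by Acta2. Pericytes sit on capillaries, carry the PDGF receptor beta of Pdgfrb and express Rgs5 strongly, and most of them hold little of the contractile proteins.

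Library totals ran from 0.941 M to 37.3 M counts, with a median of 11.3 M. The deposited counts cover each gene from end to end, introns included, and FPKM here divides by that whole span. Genes for smell, pheromone and trace amine receptors, which brain cells hardly use, served as a measure of counts that lie evenly over the genome. Their 1481 protein-coding genes averaged 0.410 FPKM, called the background below, and the background ran from 0.102 to 0.620 FPKM over the libraries. All counts spread evenly over the gene spans would give 0.767 FPKM. The background averaged 53.4% of that level and ran from 13.4% to 80.8%. It lay under 0.3 FPKM in 6 libraries, which were PFC control replicates 1 and 2, PFC susceptible replicate 1, PFC resilient replicates 1 and 2, and NAc control replicate 3. Astrocyte markers were well above it, with 14 of 14 at 2 times background or more and a summed level of 50.2 to 596 FPKM.

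Only a few of the 10 genes stood far above the background. Pdgfrb had the highest mean over the 39 libraries at 2.98 FPKM, which is 7.27 times background. Rgs5, a regulator of G protein signalling in pericytes, followed at 2.24 FPKM, and Myl9 at 2.21 FPKM. The gap from Myl9 to Acta2, at 1.06 FPKM or 2.59 times background, was larger than the spread of Acta2 (SD 0.488) but smaller than that of Myl9 (SD 1.42). Des, the muscle intermediate filament, averaged 1.00 FPKM, Myh11 0.918 FPKM and Tpm2, a tropomyosin on the actin filament, 0.861 FPKM. Tagln (transgelin, an actin-binding protein) averaged 0.750 FPKM, Mylk 0.694 FPKM and Cnn1 (calponin, which restrains the myosin motor) 0.582 FPKM. From Acta2 down to Cnn1, each neighbour in this order differed by less than either gene's SD over libraries. The same holds from Pdgfrb through Rgs5 to Myl9.

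At 2 times background or more there were 7 of the 10 genes, with Tagln, Mylk and Cnn1 below that line. The means of Tagln, Mylk and Cnn1 also lay under 0.767 FPKM, the level of all counts spread evenly. At 3 times there were 3 of 10, the Pdgfrb, Rgs5 and Myl9 group. Of the receptor genes themselves, 3.92% averaged 2 times background or more and 0.270% reached 3 times. The contractile genes other than Myl9 were thus measured close to a level that some receptor genes also show. Cnn1 alone of the 10 had libraries with 0 counts, NAc control replicate 3 and PFC susceptible replicate 6, which are the shallowest at 0.941 M and 1.22 M counts.

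Transcription of smooth muscle contractile genes is classically driven by serum response factor, which binds the CArG box, a run of CC, 6 bases rich in A and T, and GG. The Acta2 and Myl9 sequences are shown because boxes of this kind were found in them. RefSeq promoters (GRCm38.p6) were matched for 7 of the 10 genes and searched over the 250 bases before the start, where the box reads the same way on both strands. The search allowed at most 1 G or C among the 6 core bases. Boxes were found in 2 of the 7, Acta2 and Myl9, each with 2. Tagln, Myh11 and Pdgfrb had no matched promoter and were not searched. Of 32851 promoters, 8.59% held a box of this kind and 0.670% held 2 or more, so a box alone is common. The capitals mark the boxes in the sequences that follow, written 5′ to 3′ on the gene's strand.
Acta2, 84 bases before the start, chr19:34255438-34255467, minus strand: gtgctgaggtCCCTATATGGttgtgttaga
Acta2, 34 bases before the start, chr19:34255388-34255417, minus strand: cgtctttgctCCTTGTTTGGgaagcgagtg
Myl9, upstream stretch, chr2:156775214-156775419, plus strand: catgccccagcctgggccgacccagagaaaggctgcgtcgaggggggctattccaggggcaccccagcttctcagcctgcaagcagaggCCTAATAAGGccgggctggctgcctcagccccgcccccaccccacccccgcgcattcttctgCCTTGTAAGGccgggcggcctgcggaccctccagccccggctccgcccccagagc
The Myl9 boxes start 161 and 99 bases before the RefSeq start, and the first of them has no G or C in its core, a form that 1.47% of promoters hold. The GENCODE M21 gene begins upstream of the RefSeq start for both, and the Acta2 boxes lie within its annotated gene span there. Absence of a box from a window says only that these letters are not in it.

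Acta2 (chromosome 19, 34241090 to 34255590, minus strand, mm10) encodes the smooth muscle alpha actin of the contractile filament. Its 6 PFC susceptible libraries measured 3.45, 1.42, 1.39, 1.69, 1.65 and 1.69 FPKM. The PFC control libraries ran from 0.726 through a median of 0.902 to 1.28 FPKM. All 6 susceptible values lie above all 6 controls, in the group where the set was chosen with Acta2 leading. The share of all genes whose ranges separate in this way was not counted. The 5 PFC resilient libraries measured 0.697, 0.955, 0.645, 0.889 and 0.804 FPKM. In the NAc, control libraries ran from 0.704 through 1.07 to 1.22 FPKM, susceptible ones from 0.604 through 0.795 to 1.36 FPKM and resilient ones from 0.779 through 0.962 to 1.16 FPKM. The 3 NAc groups overlap throughout, and none of their values reached the lowest PFC susceptible value of 1.39 FPKM, the closest being NAc susceptible replicate 7 at 1.36 FPKM. By group mean the order was PFC susceptible 1.88 ± 0.780 (SD, n = 6), NAc control 0.992 ± 0.207 (SD, n = 7), NAc resilient 0.959 ± 0.166 (SD, n = 7), PFC control 0.937 ± 0.205 (SD, n = 6), NAc susceptible 0.857 ± 0.227 (SD, n = 8) and PFC resilient 0.798 ± 0.129 FPKM (SD, n = 5). Below the first, neighbours in this order differ by less than their SDs.

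**Figure D1:**
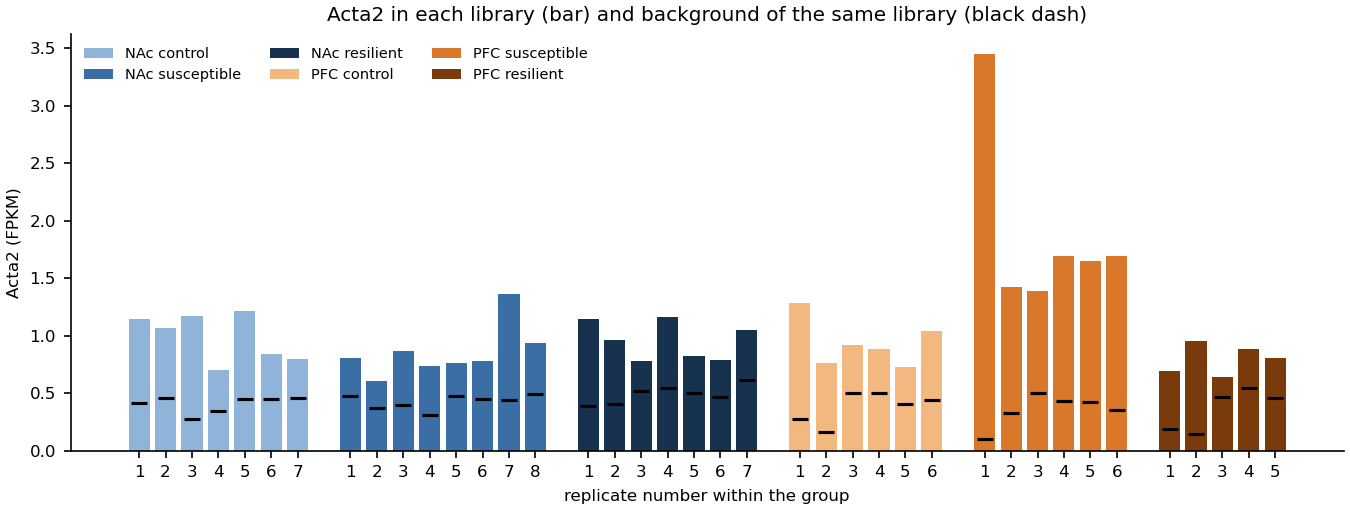
Acta2 in each of the 39 libraries by region and condition, in FPKM (bars), with the background of the same library as a black dash. The 6 PFC susceptible libraries sit between 1.39 and 3.45 FPKM, above all libraries of the other 5 groups. The set was chosen with Acta2 leading in that group, and the share of all genes that separate was not counted. Replicate 1 of that group has the lowest dash, at 0.102 FPKM.

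On 2 other scales the susceptible and control ranges of Acta2 overlapped, although the means lay further apart. PFC susceptible replicate 1 is both the highest Acta2 library and the library with the lowest background (0.102 FPKM), and it reaches 33.7 times background. The other 5 PFC susceptible libraries lay between 2.79 and 4.81 times background, and the PFC control libraries between 1.75 and 4.61 times, so on that scale these groups overlap. The means there were 8.90 and 2.81 times background. After subtraction of each library's background, the Acta2 means were 1.53 ± 0.907 FPKM (SD, n = 6) in PFC susceptible, 0.552 ± 0.250 (SD, n = 6) in PFC control and 0.437 ± 0.239 (SD, n = 5) in PFC resilient libraries. There the lowest susceptible value, 0.895 FPKM, fell below the highest control value, 1.00 FPKM. The counts behind these levels ranged from 15 to 630 per library, with 30 in PFC susceptible replicate 6.

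Of the other genes acting on the actin filament, Tpm2 came nearest to the Acta2 pattern. Its PFC susceptible libraries measured 1.85, 0.933, 1.42, 1.26, 1.31 and 1.26 FPKM, and the PFC control libraries ran from 0.523 through 0.802 to 1.24 FPKM. The PFC resilient libraries measured 0.609, 0.776, 0.482, 0.782 and 0.874 FPKM. All 6 PFC susceptible values of Tpm2 lie above the PFC resilient and the NAc resilient libraries, and they overlap those of the other 3 groups. Here too the share of all genes that separate was not counted. Tagln averaged 0.942 ± 0.302 FPKM (SD, n = 6) in PFC susceptible, 0.651 ± 0.178 (SD, n = 6) in PFC control and 0.522 ± 0.141 (SD, n = 5) in PFC resilient libraries. Its ranges overlap between all groups, and its counts were at most 162 per library. Cnn1 averaged 0.567 ± 0.413 FPKM (SD, n = 6) in PFC susceptible against 0.636 ± 0.227 (SD, n = 6) in PFC control libraries, without the order that Acta2 shows.

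On the motor side of the apparatus, Myh11, the smooth muscle myosin heavy chain, had group means from 0.697 FPKM in PFC resilient to 1.05 FPKM in PFC susceptible libraries, and all groups overlap. Mylk group means ran from 0.571 FPKM in PFC resilient to 0.762 FPKM in NAc susceptible libraries. Des group means ran from 0.719 FPKM in PFC resilient to 1.18 FPKM in PFC susceptible libraries. Tagln, Myh11, Mylk, Des, Acta2 and Cnn1 had their lowest group mean in PFC resilient libraries, which the tests of resilient against control mice below take up. Myl9 differed from these in its spread. The NAc control libraries of Myl9 ran from 1.42 through 1.96 to 6.98 FPKM, and the PFC resilient ones measured 2.44, 6.15, 1.80, 1.01 and 1.52 FPKM. The high values of Myl9 belong to libraries of low background, NAc control replicate 3 and PFC resilient replicate 2.

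Rgs5 and Pdgfrb, the pericyte-associated genes of the set, showed the same kind of spread. The PFC resilient libraries of Rgs5 measured 4.20, 7.51, 1.89, 1.72 and 1.82 FPKM, while the NAc resilient libraries ran from 0.911 through 1.19 to 2.05 FPKM. In control mice Rgs5 ran from 1.33 through 2.15 to 4.73 FPKM in the PFC and from 1.01 through 1.81 to 2.07 FPKM in the NAc. The PFC values above 3 FPKM were all in replicates 1 and 2 of their groups, and NAc and PFC ranges of Rgs5 overlap in each condition. Pdgfrb in PFC resilient libraries measured 3.90, 6.51, 2.94, 2.05 and 2.74 FPKM, against 1.59 through 1.91 to 3.86 FPKM in NAc resilient libraries. Here too replicates 1 and 2 were high.

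**Figure D2:**
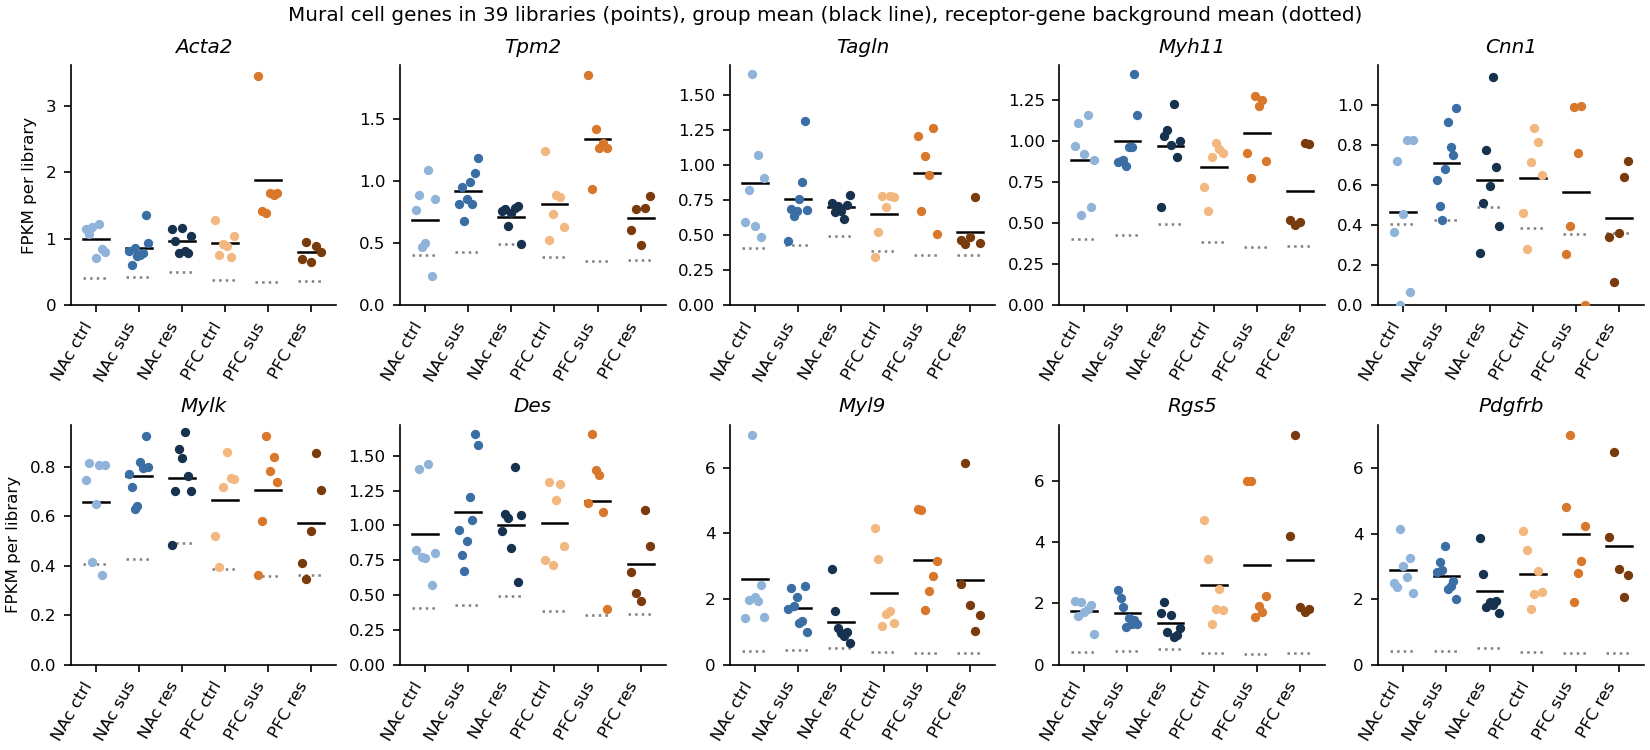
FPKM of the 10 genes in every library (points) by region and condition, with the group mean as a black line and the mean background of the group dotted. In FPKM, Acta2 separates PFC susceptible libraries, where the set was chosen with it leading, from the other 5 groups. The share of all genes that separate was not counted. As a multiple of the background, or with the background subtracted, the PFC susceptible and control ranges of Acta2 overlapped. In Rgs5 the values above 3 FPKM are replicates 1 and 2 of the PFC groups.

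Conditions in the NAc were compared by edgeR's quasi-likelihood test with Benjamini-Hochberg adjustment over 35943 genes. No gene of any kind passed in these 3 comparisons, so the counts of 0 below say nothing particular about the set. For susceptible against control mice 0 of 10 passed at an adjusted p of 0.05, beside 0% of all genes tested, and 0 had an unadjusted p under 0.05, beside 3.02% of all genes. Log2 fold changes ran from -0.44 ± 0.35 (SE) for Myl9 to 0.37 ± 0.29 for Cnn1, and Acta2 was at -0.26 ± 0.16. For resilient against control mice 0 of 10 passed, again beside 0% of all genes, and 1 of 10 had an unadjusted p under 0.05, beside 6.14% of all genes, a share near that of the set. The gene was Myl9, with a log2 fold change of -0.80 ± 0.37 (SE) and an adjusted p of 0.756 by edgeR. Rgs5 at -0.43 ± 0.23 and Pdgfrb at -0.42 ± 0.23 had the next lowest values. Without NAc control replicate 3, the library of the highest Myl9 value, Myl9 was at -0.54. For susceptible against resilient mice 0 of 10 passed beside 0% of all genes, and 0 at an unadjusted p under 0.05 beside 2.90%. There 9 of 10 log2 fold changes were positive, with a median of 0.19 against 0.016 over all genes tested. Other lists lay the same way, with 14 of 14 astrocyte genes positive at a median of 0.37, 9 of 9 oligodendrocyte genes at 0.25, 16 of 19 pericyte genes at 0.16 and 20 of 23 paralogs of the set at 0.20, and their part in the values of the set was not tested. The largest, Myl9 at 0.35 ± 0.35 and Tpm2 at 0.35 ± 0.18, were at an adjusted p of 0.998. DESeq2 and limma-voom with library weights called 0 of the 10 genes in these 3 comparisons.

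In the PFC, no gene of the 32167 tested passed for resilient against control mice. Of the set 0 of 10 passed beside that 0%, and 0 had an unadjusted p under 0.05 by edgeR, beside 0.597% of all genes. DESeq2 and limma-voom also called 0. The low group means of contractile genes in PFC resilient libraries correspond to log2 fold changes of -0.12 ± 0.33 (SE) for Acta2, -0.20 ± 0.17 for Myh11, -0.42 ± 0.31 for Des and -0.44 ± 0.44 for Cnn1. Pdgfrb, Rgs5 and Myl9 were on the other side, at 0.53 ± 0.43, 0.55 ± 0.57 and 0.40 ± 0.55. All 10 values lie within 2 SE of 0, and SEs of up to 0.57 leave room for differences in either direction. Without the 6 libraries of background under 0.3 FPKM, Rgs5 was at 0.013 and Pdgfrb at 0.25.

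The regions were then compared within a condition, with NAc over PFC as the direction. In control mice 0 of 10 genes passed beside 0.00262% of the 38171 genes tested, which is 1 gene outside the set, and 0 had an unadjusted p under 0.05, beside 5.04% of all genes. Acta2 was at -0.017 ± 0.24 (SE), and the largest value was that of Rgs5, -0.73 ± 0.43. DESeq2 called 129 genes in this comparison and limma-voom 16, with none of the 10 among either. In resilient mice 0 of 10 passed beside 0% of all genes, while 3 of 10 had an unadjusted p under 0.05. These were Rgs5, at a log2 fold change of -1.71 ± 0.45 (SE) with an adjusted p of 0.251, Pdgfrb at -1.01 ± 0.35 and Myl9 at -1.30 ± 0.49. At an unadjusted p under 0.05 stood 14.6% of all genes in that comparison. DESeq2 gave Rgs5 an adjusted p of 0.0456 and called 88 genes in all. The Rgs5 value was -1.09 without PFC resilient replicate 2, -0.58 with the background as a covariate and -0.40 without the 6 libraries of low background. Without those libraries Pdgfrb was at -0.18, and Myl9 was at 0.020, the other side of 0. Acta2 in resilient mice was at 0.014 ± 0.26. The resilient effect in the NAc less that in the PFC gave 0 of 10 called beside 0% of all genes, with 0 at an unadjusted p under 0.05 beside 3.45% of all genes. DESeq2 and limma-voom also called 0 of the set, and values ran from -1.26 ± 0.69 for Myl9 to 0.64 ± 0.53 for Cnn1.

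The contrasts that hold PFC susceptible libraries are given for their size alone. Of susceptible against control mice in the PFC, 9 of 10 log2 fold changes were positive, with a median of 0.49 against -0.015 over all genes. Acta2 led at 1.14 ± 0.31 (SE), followed by Tpm2 at 0.81 ± 0.27, Tagln at 0.64 ± 0.26, Myl9 at 0.60 ± 0.52 and Pdgfrb at 0.57 ± 0.41. Rgs5 was at 0.41 ± 0.55, Myh11 at 0.36 ± 0.17, Des at 0.27 ± 0.29, Mylk at 0.10 ± 0.17 and Cnn1 at -0.072 ± 0.40. Without PFC susceptible replicate 1, Acta2 was at 0.67 and Tpm2 at 0.54, and without the 6 libraries of low background the order was another, with Myl9 at 1.11, Pdgfrb at 0.91, Acta2 at 0.88, Tpm2 at 0.72, Rgs5 at 0.70 and Tagln at 0.37. Of all genes 0% were called in that contrast. Against PFC resilient libraries Acta2 was at 1.26 ± 0.34, beside 0% of all genes called, and that contrast shares its susceptible libraries with the one before. In susceptible mice the NAc over PFC value of Acta2 was -1.40 ± 0.23, and -0.92 without PFC susceptible replicate 1. Of the 38171 genes 0.00262% were called there, and no test is given for the set, since it was drawn up on those libraries. The difference of the susceptible effects between regions was -1.39 ± 0.34 for Acta2, beside 0% of all genes called.

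**Figure D3:**
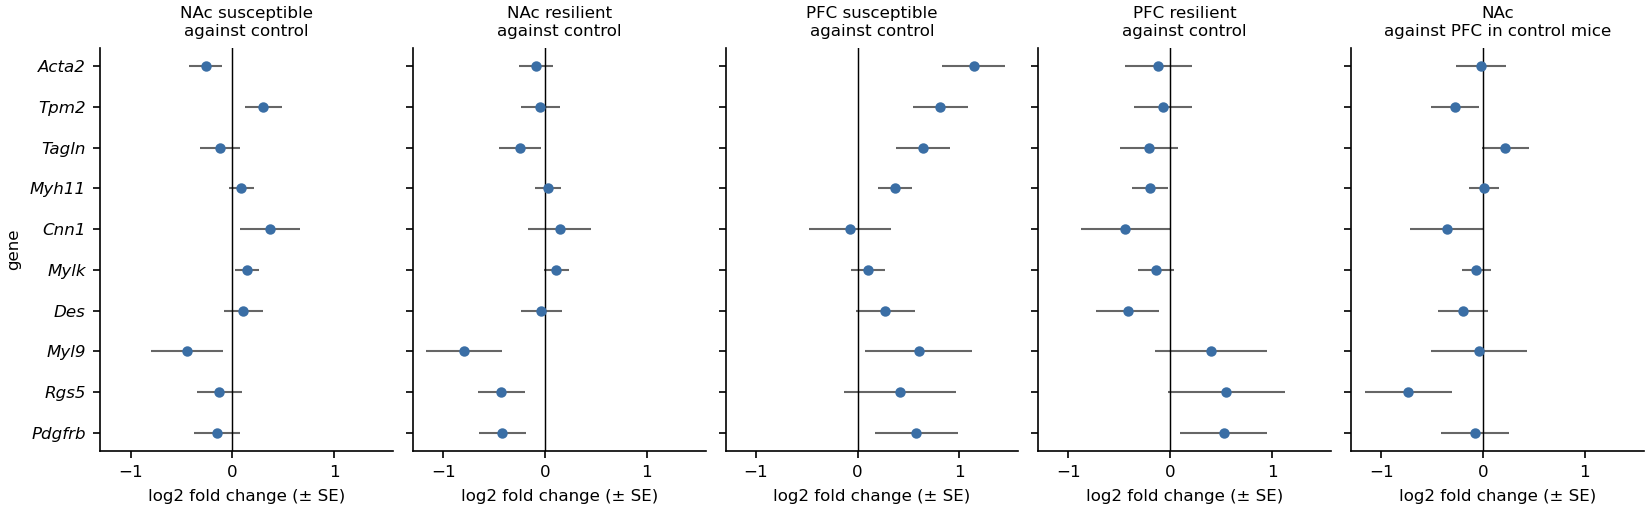
Log2 fold change with SE (points and lines) of the 10 genes in 5 comparisons, on a shared axis. Acta2 stands at 1.14 for PFC susceptible against control mice, a contrast shown without a test, and no gene of the set passed in the other 4 panels.

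Genes that share the biology of the set were examined as lists. In the tested comparisons none of their members passed, beside at most 0.00262% of all genes tested. The list of other smooth muscle genes holds 23, of which 10 averaged 2 times background or more. In PFC susceptible against control mice 13 of 23 were positive with a median of 0.089, beside 47.5% positive over all genes. There 0 of 23 passed, beside 0% of all genes tested, so counts of 0 in this contrast say nothing particular about a list. Kcnmb1, the beta subunit of the smooth muscle potassium channel, was at 0.29 ± 0.24 (SE) and Ppp1r14a, an inhibitor of myosin phosphatase, at 0.62 ± 0.40 with an adjusted p of 1 by edgeR. Of 18 transcriptional regulators of smooth muscle, such as Srf and Myocd, 10 were positive there with a median of 0.051, and 0 passed. In NAc resilient against control mice 13 of these 18 were negative, beside 52.1% positive over all genes. An unadjusted p under 0.05 was found for 6, beside 6.14% of all genes, among them Hey2, a Notch target, at -0.50 ± 0.17 with an adjusted p of 0.756 by edgeR. In that comparison 9 of 9 oligodendrocyte genes (8 with an unadjusted p under 0.05), 13 of 14 astrocyte genes and 15 of 19 pericyte genes were negative too. Of neuron genes 6 of 11 were positive, and of perivascular fibroblast genes 8 of 15. Their part in the values of the regulators was not tested. The 6 other genes of PDGF signalling gave 2 positive and 4 negative values in PFC susceptible against control mice, all between -0.096 and 0.078. Pdgfb, the ligand through which endothelial cells hold pericytes, was at -0.096 ± 0.26. Of 21 genes of calcium and contraction signalling, 10 were positive there with a median of -0.029.

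Markers of neighbouring cell types were set beside the same contrast. In PFC susceptible against control mice 17 of 19 pericyte genes were positive with a median of 0.34, 17 of 18 endothelial genes with a median of 0.24, 11 of 15 perivascular fibroblast genes with a median of 0.23 and 14 of 14 astrocyte genes with a median of 0.74. Oligodendrocyte genes were positive in 7 of 9 with a median of 0.065. Neuron genes were positive in 2 of 11 (median -0.20), microglia genes in 4 of 10 (-0.12) and choroid and ependymal genes in 3 of 8 (-0.031). Over all genes tested 47.5% were positive. None of the marker genes passed, beside 0% of all genes. The summed pericyte level ran from 38.8 to 166 FPKM in PFC susceptible and from 32.5 to 113 FPKM in PFC control libraries. The summed endothelial level ran from 16.7 to 42.1 FPKM and from 13.3 to 47.5 FPKM, and the summed fibroblast level from 25.4 to 297 FPKM and from 18.9 to 178 FPKM in the same order. The astrocyte sums were 50.2 to 404 FPKM and 67.5 to 237 FPKM. These sums overlap between the groups, and their part in the Acta2 values was not tested. In PFC resilient against control mice the pericyte genes were positive in 16 of 19 and the astrocyte genes in 14 of 14, with medians of 0.31 and 0.73. In bulk libraries more cells of a type and more RNA per cell cannot be told apart.

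The 10 genes did not vary as one block. After group means were removed, the Pearson correlation of log2 CPM over the 39 libraries was above 0.5 in 8 of 45 gene pairs and below 0 in 20, with a median of 0.17. One set of pairs joins Pdgfrb, Myl9 and Rgs5, with 0.91 for Myl9 and Pdgfrb, 0.82 for Rgs5 and Pdgfrb and 0.74 for Myl9 and Rgs5. The other joins Myh11, Mylk and Cnn1, with 0.85 for Myh11 and Mylk, 0.74 for Myh11 and Cnn1 and 0.70 for Mylk and Cnn1. Between these sets the values were negative, down to -0.77 for Mylk and Pdgfrb. Acta2 belonged to neither, and its highest value was 0.42 with Tpm2. The remaining pairs above 0.5 were Des with Cnn1 at 0.59 and Des with Myh11 at 0.52. The background moved with the same division. Its correlation with log2(FPKM + 0.5), group means kept, was -0.83 for Pdgfrb, -0.82 for Myl9 and -0.79 for Rgs5. It was 0.77 for Mylk, 0.57 for Cnn1, 0.56 for Myh11, 0.20 for Des and -0.27 for Acta2. On log2 CPM with group means removed, it was -0.81 for Pdgfrb, -0.81 for Myl9 and -0.75 for Rgs5. There it was 0.79 for Mylk, 0.50 for Cnn1, 0.63 for Myh11, 0.20 for Des and -0.22 for Acta2. The points share depth and background, so these values describe the libraries and carry no p.

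**Figure D4:**
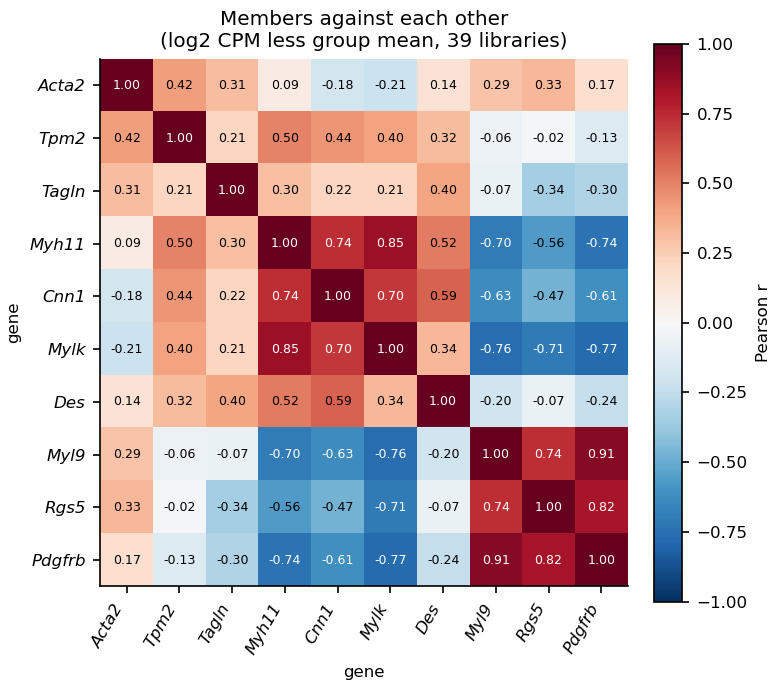
Pearson correlation between the 10 genes over 39 libraries, from log2 CPM with group means removed, with the value written in each cell. Pdgfrb, Myl9 and Rgs5 correlate with each other at 0.74 to 0.91, Myh11, Mylk and Cnn1 at 0.70 to 0.85, and Mylk and Pdgfrb at -0.77.

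**Figure D5:**
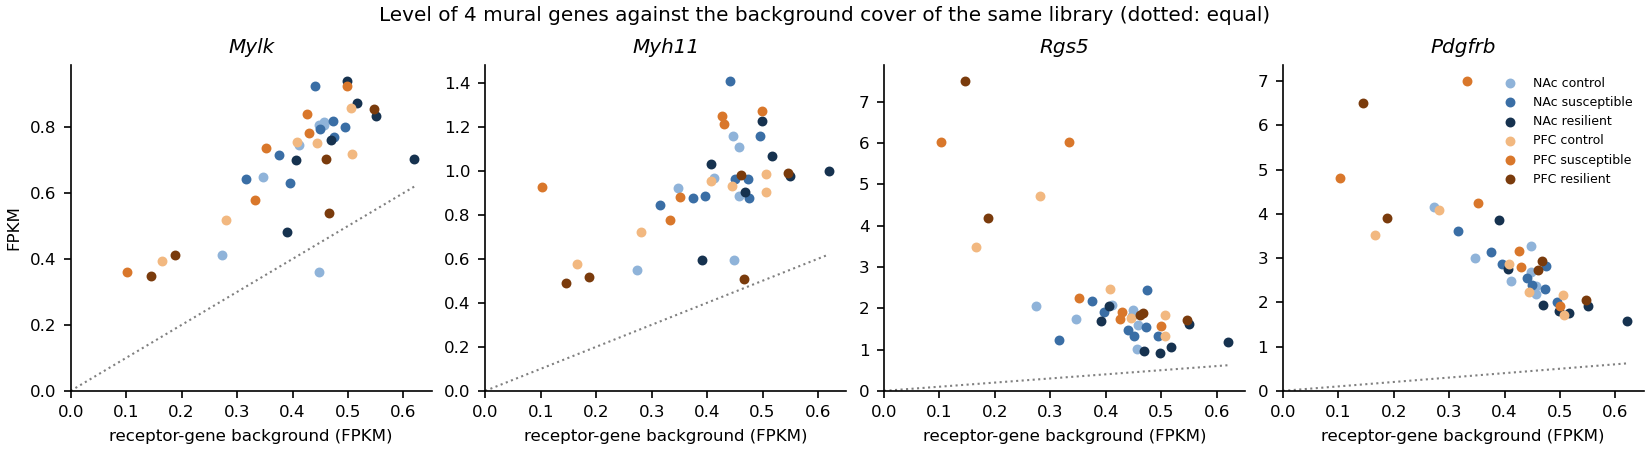
FPKM of Mylk, Myh11, Rgs5 and Pdgfrb in each of the 39 libraries (points, coloured by group) against the receptor-gene background of the same library in FPKM, with equality dotted. Mylk and Myh11 lie higher where the background is higher (r = 0.77 and 0.56 on log2(FPKM + 0.5), group means kept), and Rgs5 and Pdgfrb lie lower (-0.79 and -0.83).

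Genes outside the set that varied most like its mean were ranked among 8885 genes, those at 2 times background or more without pseudogenes and genes that carry only a clone or model name. Over the 39 libraries they were Adgra2 (an adhesion receptor of brain vessels) at r = 0.78, Akap12 at 0.76, Col4a2 (a basement membrane collagen) at 0.73, Esyt1 at 0.73, Smtn (smoothelin, of contractile smooth muscle) at 0.71, Ehd2 at 0.70, Ggt5 at 0.70, Ehbp1l1 at 0.68, Eng (endoglin, of endothelium) at 0.66 and Stat6 at 0.65. Those outside genes averaged from 0.845 FPKM (Akap12) to 1.07 FPKM (Esyt1), and the part of the background in their correlations was not tested. Within the set the correlation with its own mean was 0.76 for Tpm2, 0.69 for Des and 0.58 for Acta2, and 0.027 for Pdgfrb. Each of these genes is itself part of that mean, so these values do not compare with those of outside genes. The genes most like Acta2 alone were Psme2 at r = 0.58, Thbd (thrombomodulin, of endothelium) at 0.55, Fn1 (fibronectin) at 0.53, Slc22a8 at 0.53 and Aebp1 at 0.53, followed by Nbl1, Mtmr4, Mir1193, Ppp1r1a and Cavin1 at 0.47 to 0.51. No gene of these lists reached the 0.91 of Myl9 and Pdgfrb, which is the highest of 45 gene pairs. A correlation with the mean of the set is another measure than that of a gene pair.

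Reads could be shared between some of these genes and others. Tagln lies under the antisense gene Gm48529 over 56.3% of its span and under the end of Pcsk7 over 1.68%. Mylk has 3 antisense genes within its 257211 bases, and Des overlaps Gm15179 over 4.46% of its span. The strand setting of the counting is not given in the sources used here, so Tagln values in particular are uncertain. Relatives with near-identical transcripts are a smaller concern. Of 50-base stretches of Acta2 transcripts 0.326% occur in those of a related gene, chiefly Actg1, and 0.340% of those of Myh11 occur in a related gene, chiefly Myh9. For the other 8 genes the share was 0%.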

How the data were processed

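Per the submitters' processing notes, the authors counted reads with featureCounts on mm10 (its version, the aligner and the strandedness option were not given in the sources used here). Their deposited count table holds whole numbers for 55401 genes in 39 libraries. The deposited FPKM table was made by the authors, and its values equal CPM over the GENCODE M21 gene span for 54229 of 54229 genes compared (relative tolerance 1e-06), with the span in kilobases, so introns are included.

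The 10 genes, the gene lists and the tests were chosen with earlier results of these data known. Groups follow the labels. Counts were tested in R 4.3.3 with edgeR 4.0.16 (TMM, filterByExpr, robust quasi-likelihood test, Benjamini-Hochberg adjustment over all genes tested, threshold 0.05, two-sided), per region for conditions and over all 39 libraries for regions and differences of effects. SE is the log2 fold change divided by the square root of F. The pipeline was tested on simulated data. Correlations used log2 CPM with a prior count of 0.5, except those with the background that are given on log2(FPKM + 0.5).

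Alternatives were DESeq2 1.42.0, limma 3.58.1 (voom with library quality weights, called limma-voom, and trend on log2(FPKM + 0.5)), RLE scaling, other filters (none, or 50 counts), covariates, replicate blocks, only the groups compared and libraries left out. Leaving out the 6 libraries of background under 0.3 FPKM and subtracting the background were chosen after seeing the data. Precision is limited by low counts, such as 15 to 630 for Acta2.

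Named genes are the 10 in every comparison, up to 4 per list with the smallest p, and the 10 most like the mean of the 10 genes and most like Acta2. Members of the lists for neurons, oligodendrocytes, microglia, choroid plexus and paralogs were fitted with the rest. None passed in the tested comparisons, beside at most 0.00262% of all genes tested.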

Additional observations from a re-analysis of the deposited data

Results flagged for a closer look

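In 5 of 60 groups of FPKM values, 10 genes in 6 groups, the highest or lowest library lay far from the others by Dixon's criterion, where chance gives about 1 in 20. Acta2 was highest in PFC susceptible replicate 1, at 3.45 FPKM, with the other 5 libraries of that group between 1.39 and 1.69 FPKM. Myl9 was highest in NAc control replicate 3, at 6.98 FPKM. Both are libraries of low background, at 0.102 and 0.273 FPKM, and the part of the background in these values was not tested. Tagln was highest in PFC resilient replicate 4, at 0.771 FPKM. Des was lowest in PFC susceptible replicate 6, at 0.396 FPKM from 4 counts. Rgs5 was lowest in NAc control replicate 7, at 1.01 FPKM.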

How the results depend on the processing

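The count of the 10 genes called was 0 in all 7 tested comparisons, and it stayed 0 under the alternatives run except for NAc against PFC in resilient mice, where DESeq2 called 1, Rgs5. At 3 times background 3 of 10 genes remained and at 1.5 times 9. Whether shared or consecutive numbers mark paired samples cannot be told from so few pairs. Correlations of deviations over 0.1 were found in 3 of 7, 1 of 7 and 4 of 7 same-numbered pairs in the NAc. They were found in 4 of 5 in the PFC, and in 2 of 6, 4 of 6 and 2 of 4 pairs of consecutive numbers across regions. With the replicate block or the block by sample pair 0 of 10 genes were called. Depth limits the set most for Cnn1, Tagln, Tpm2 and Des, whose lowest counts were 0, 4, 4 and 4.

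Of 910 log2 fold changes recomputed in the tested comparisons, 71 changed sign, 64 of them from a value within 1 SE of 0, and the cause was not tested. With DESeq2 the sign turned in NAc against PFC in control mice for Acta2 at 0.0065 and Myl9 at 0.10. With RLE scaling the sign turned in NAc against PFC in control mice for Acta2 at 0.0066 and Myl9 at 0.0072. With the background covariate the sign turned in NAc against PFC in control mice for Acta2 at 0.065, Myl9 at 0.25 and Pdgfrb at 0.14 and in NAc against PFC in resilient mice for Cnn1 at -0.029. In resilient against control mice in the NAc it turned for Cnn1 at -0.073, Myh11 at -0.078 and Mylk at -0.020 and in susceptible against resilient mice in the NAc for Myl9 at -0.030 and Pdgfrb at -0.015. In the resilient effect in NAc less that in PFC it turned for Tagln at 0.025. With the endothelial covariate the sign turned in NAc against PFC in control mice for Acta2 at 0.037, Myl9 at 0.15 and Pdgfrb at 0.059 and in resilient against control mice in the NAc for Des at 0.031. In susceptible against resilient mice in the NAc it turned for Mylk at -0.0068. With the astrocyte covariate the sign turned in resilient against control mice in the NAc for Cnn1 at -0.18, Myh11 at -0.13 and Mylk at -0.051 and in resilient against control mice in the PFC for Myl9 at -0.19. In susceptible against resilient mice in the NAc it turned for Pdgfrb at -0.023. With limma-trend the sign turned in NAc against PFC in control mice for Acta2 at 0.053, Myl9 at 0.17 and Pdgfrb at 0.074 and in resilient against control mice in the NAc for Des at 0.075 and Tpm2 at 0.067. In the resilient effect in NAc less that in PFC it turned for Tagln at 0.019 and in NAc against PFC in resilient mice for Tpm2 at 0.013. With limma-voom and library weights the sign turned in NAc against PFC in control mice for Acta2 at 0.16, Des at 0.18, Myl9 at 0.34, Mylk at 0.025, Pdgfrb at 0.17 and Tpm2 at 0.10 and in the resilient effect in NAc less that in PFC for Acta2 at -0.085, Des at -0.18, Myh11 at -0.030, Tagln at 0.058 and Tpm2 at -0.33. In resilient against control mice in the NAc it turned for Cnn1 at -0.045 and Myh11 at -0.079 and in NAc against PFC in resilient mice for Des at -0.0080. In susceptible against control mice in the NAc it turned for Des at -0.034 and Myh11 at -0.053 and in susceptible against resilient mice in the NAc for Mylk at -0.0022. In resilient against control mice in the PFC it turned for Tpm2 at 0.11. With the 6 libraries of low background left out the sign turned in NAc against PFC in control mice for Acta2 at 0.18, Des at 0.022, Myl9 at 0.51 and Pdgfrb at 0.35 and in NAc against PFC in resilient mice for Cnn1 at -0.00085 and Myl9 at 0.020. In resilient against control mice in the NAc it turned for Myh11 at -0.032 and in resilient against control mice in the PFC for Myl9 at -0.022. In the resilient effect in NAc less that in PFC it turned for Tagln at 0.15 and Tpm2 at -0.027. With only the groups compared the sign turned in NAc against PFC in resilient mice for Acta2 at -0.0059. With the 3 smallest libraries left out the sign turned in NAc against PFC in resilient mice for Acta2 at -0.060 and in the resilient effect in NAc less that in PFC for Acta2 at -0.022, Tagln at 0.019 and Tpm2 at -0.087. In resilient against control mice in the NAc it turned for Myh11 at -0.032 and in NAc against PFC in control mice for Mylk at 0.023. In resilient against control mice in the PFC it turned for Tpm2 at 0.0093. With no count filter the sign turned in NAc against PFC in control mice for Myh11 at -0.0020. With the replicate block the sign turned in resilient against control mice in the NAc for Des at 0.022 and Tpm2 at 0.050. With the block by sample pair the sign turned in the resilient effect in NAc less that in PFC for Tagln at 0.15.

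Leaving out 1 library gave 2000 values, of which 67 changed sign, all from a value within 1 SE of 0. For NAc against PFC in control mice the ranges were -0.10 to 0.13 for Acta2, -0.32 to 0.031 for Des, -0.043 to 0.088 for Myh11, -0.35 to 0.28 for Myl9, -0.12 to 0.018 for Mylk and -0.20 to 0.15 for Pdgfrb. For NAc against PFC in resilient mice the ranges were -0.069 to 0.17 for Acta2. For resilient against control mice in the PFC the ranges were -0.28 to 0.045 for Acta2, -0.36 to 0.73 for Myl9, -0.081 to 0.85 for Rgs5 and -0.18 to 0.14 for Tpm2. For the resilient effect in NAc less that in PFC the ranges were -0.12 to 0.17 for Acta2, -0.14 to 0.066 for Tagln and -0.15 to 0.18 for Tpm2. For resilient against control mice in the NAc the ranges were -0.029 to 0.29 for Cnn1, -0.11 to 0.087 for Des, -0.032 to 0.093 for Myh11 and -0.17 to 0.086 for Tpm2. For susceptible against resilient mice in the NAc the ranges were -0.012 to 0.11 for Myh11 and -0.022 to 0.078 for Mylk.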
